A study of Homo sapiens with 2 samples.

Results

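The genes described here are 42 oestrogen-responsive genes of breast epithelium, followed in T47D, an established luminal breast cancer cell line that carries the oestrogen receptor. They form a list of names drawn up with earlier results of these data known, and 39 of the 42 were measured, among 11564 named genes in all. MYBL1, ELOVL2 and RARRES1 had no named feature and are not analysed here. The study compared 1 array of T47D cells given a lentivirus against TRPS1 (shTRPS1) with 1 array of T47D cells given a negative control lentivirus (NC). Both cultures were kept in medium with fetal bovine serum, and the labels name no hormone treatment. The labels do not say whether the cells were clones or pools, nor which site of TRPS1 the hairpin targets. With 1 array a group there were no replicates, so no test was possible: every difference below compares these 2 arrays, with no SD and no p-value.

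Oestrogen acts through the oestrogen receptor ESR1, a nuclear receptor that binds DNA directly or through other factors and recruits coactivators or corepressors. In luminal breast cells FOXA1 and GATA3 open the chromatin at many of its sites. The receptor's target genes encode secreted peptides, growth factor regulators, chaperones and transcription factors, and their levels are widely used as a readout of receptor activity. TRPS1 is a GATA-type zinc finger protein of luminal cells that acts mainly as a repressor.

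The values are the authors' deposited intensities on a linear scale, 1 per transcript accession (a feature), and a gene is represented by its brightest feature. The targeted gene itself differed little: TRPS1 had an intensity of 603 in the shTRPS1 array and 726 in the NC array, 17.0% lower in shTRPS1 (log2 difference -0.27). TRPS1 had 1 feature, and its difference lay at the 25.8th percentile of the 500 named genes nearest to it in mean signal. It was also smaller than the SD of 0.34 of a feature about its gene, described below. These 2 arrays alone therefore do not establish a lower TRPS1 transcript. All directions below rest on an array in which the targeted transcript was measured only that much lower. The background level, the 95th percentile of 60 olfactory receptor features, was 325 in the shTRPS1 array and 397 in the NC array. All 10 luminal markers (ESR1, GATA3, FOXA1, KRT8, KRT18, KRT19, EPCAM, CDH1, XBP1 and SPDEF) exceeded it on both arrays, with summed intensities of 150333 in shTRPS1 and 142370 in NC. The 3 measured basal markers, of 5 listed, also exceeded it on both arrays and summed to 7089 in shTRPS1 and 6619 in NC, but went different ways. KRT14 had 2113 in shTRPS1 and 598 in NC, while KRT5 had 4381 in shTRPS1 and 5273 in NC and ACTA2 had 595 in shTRPS1 and 748 in NC. The 2 measured fibroblast markers, of 6 listed, summed to 1831 in shTRPS1 and 1027 in NC; COL1A1 had 773 in shTRPS1 and 363 in NC, of which only the shTRPS1 value exceeded background, and VIM had 1057 in shTRPS1 and 665 in NC. The endothelial marker CDH5 and the leucocyte marker CD14 were below background on both arrays. The part of the basal and fibroblast markers in the differences below was not tested.

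The receptor and its pioneer factors were almost level. ESR1 had an intensity of 582 in the shTRPS1 array and 541 in the NC array, a log2 difference of 0.11. FOXA1 had 5042 in shTRPS1 and 4795 in NC (log2 difference 0.07), and GATA3 had 25544 in shTRPS1 and 22487 in NC (0.18). PGR, the progesterone receptor and a classical target of ESR1, had 431 in shTRPS1 and 549 in NC, a log2 difference of -0.35. ESR1 and PGR were both within reach of the background levels, so their differences carry little weight.

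Most of the oestrogen-responsive genes were slightly higher in the shTRPS1 array, and few were far apart. Of the 39 measured genes 28, or 71.8%, had a positive log2 difference, beside 53.4% of all 11564 named genes. Their median log2 difference was 0.18, beside 0.05 over all named genes, and their quartiles were -0.09 and 0.62. A gene was called higher or lower where its measured values differed at least 2-fold and at least 1 array exceeded its background level. One gene, CISH, was called higher (1 of 39, 2.56%, beside 2.27% of all named genes). RERG and CELSR2 were called lower (2 of 39, 5.13%, beside 1.43% of all named genes). RERG was below background in the shTRPS1 array and is called by its measured value alone, so with both arrays above background only CELSR2 was called lower. At 1.5-fold the count was 10 higher (25.6%, beside 8.28%) and 2 lower (5.13%, beside 5.08%). Of these, 8 of the higher genes and 1 of the lower had both arrays above background; RET, KCTD6 and RERG passed only through their brighter array. These shares describe the same 2 arrays and have no replicate check. A larger part of the listed genes could be called at all. Background was exceeded on at least 1 array by 30 of the 39, beside 6949 of the 11564 named genes.

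**Figure D1:**
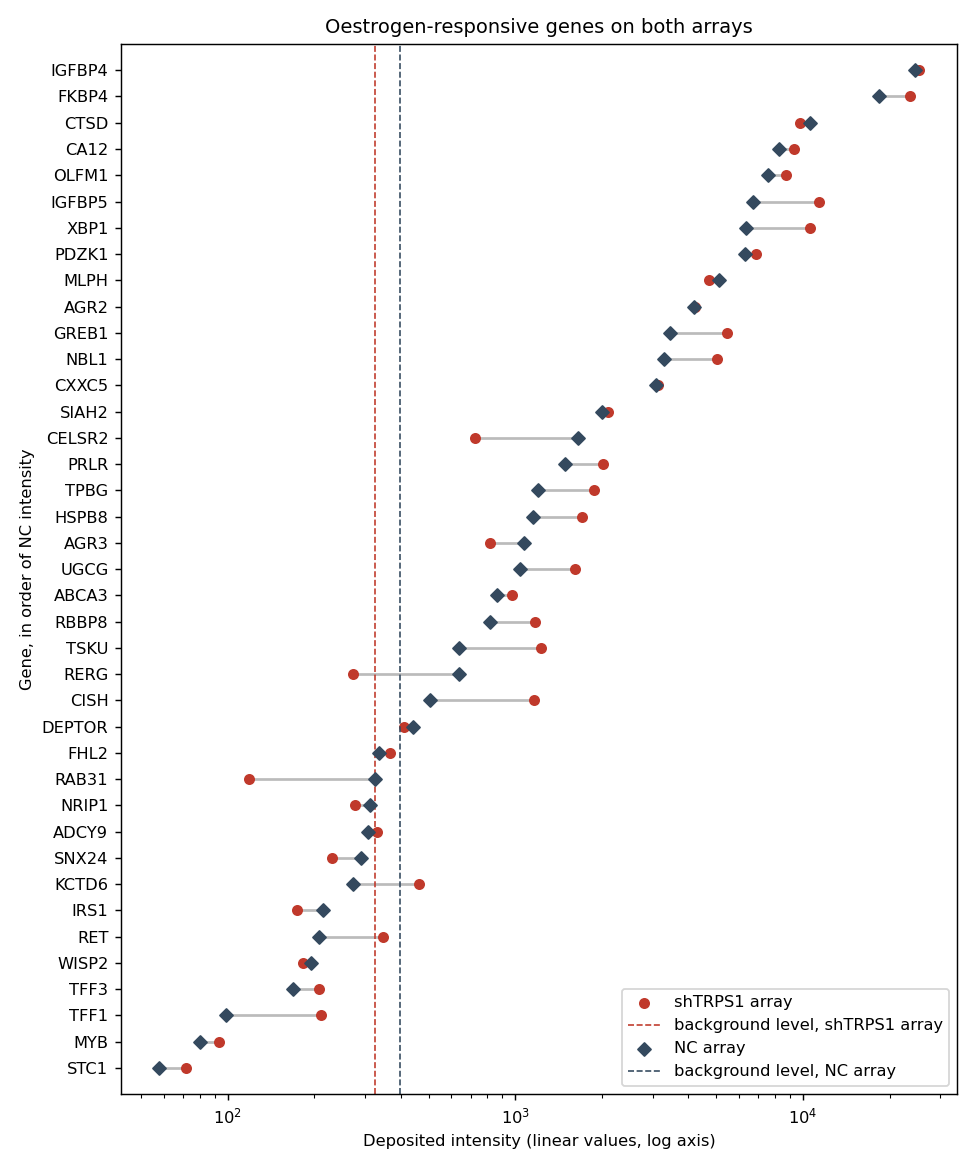
Deposited intensity of the 39 measured oestrogen-responsive genes in the shTRPS1 array (circles) and the NC array (diamonds), on a log axis, ordered by NC intensity; dashed lines mark the background levels of 325 (shTRPS1) and 397 (NC). IGFBP4 lies at the top with 25413 in shTRPS1 and 24457 in NC, CISH stands to the right of its NC value, CELSR2 and RERG to the left, and 9 genes lie under the background level of each array.

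By signal on the NC array the genes spanned nearly the whole range. This is an order of signal, not of transcript abundance, since different features differ in their probes. Of the 39 genes 10 lay above the 90th percentile of all named genes, and the median gene lay at the 70.2th percentile. Both arrays exceeded background for 25 of the genes, 1 array for 5 and neither for 9. The 9 dim genes included TFF1, TFF3, MYB and NRIP1, among the best known oestrogen targets, and their differences cannot be read as a change.

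The secreted and secretory pathway genes were mixed. Of 10 measured, 7 had a positive difference and 2 were at least 1.5-fold higher, with a median log2 difference of 0.25. TSKU, a secreted leucine-rich repeat proteoglycan, had an intensity of 1233 in the shTRPS1 array and 639 in the NC array. It was 1.93-fold higher in shTRPS1, just under the 2-fold line. NBL1, a secreted antagonist of bone morphogenetic proteins, had 5025 in shTRPS1 and 3290 in NC and was 1.53-fold higher. OLFM1, an olfactomedin-domain glycoprotein, was represented by 2 features, with 8748 and 1436 in shTRPS1 and 7580 and 1087 in NC. Both of its features were higher in shTRPS1, by 1.15-fold and 1.32-fold.

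CTSD, the lysosomal protease cathepsin D, was among the brightest genes, with 9788 in the shTRPS1 array and 10606 in the NC array. AGR2, a protein disulphide isomerase of the secretory pathway, was level at 4202 in shTRPS1 and 4175 in NC. Its paralogue AGR3 had 816 in shTRPS1 and 1070 in NC, 1.31-fold lower in shTRPS1. The pair thus had log2 differences of 0.01 and -0.39, neither near the 2-fold line. TFF1, a trefoil peptide and the textbook target of ESR1, had 212 in shTRPS1 and 98.7 in NC, both below background, and no fold is given. TFF3, the intestinal-type trefoil peptide, had 208 in shTRPS1 and 169 in NC, and STC1, a glycoprotein hormone, had 71.4 in shTRPS1 and 57.8 in NC. WISP2, a matricellular protein of the CCN family, was also below background, with 183 in shTRPS1 and 194 in NC.

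The promoters of AGR2 and AGR3 are shown because the genes are neighbouring paralogues, picked after their log2 differences of 0.01 and -0.39 were seen. Each is a 300-base window, from 250 bases before to 50 bases after the first transcription start listed in RefSeq (GRCh38.p14), and both are on the minus strand, at chr7:16804950-16805249 for AGR2 and chr7:16881934-16882233 for AGR3. Capitals in AGR2 mark AGATAA, a motif that GATA-type factors recognise. Those in AGR3 mark the half-site of the oestrogen response element, AGGTCA or, read from the other strand, TGACCT.
AGR2: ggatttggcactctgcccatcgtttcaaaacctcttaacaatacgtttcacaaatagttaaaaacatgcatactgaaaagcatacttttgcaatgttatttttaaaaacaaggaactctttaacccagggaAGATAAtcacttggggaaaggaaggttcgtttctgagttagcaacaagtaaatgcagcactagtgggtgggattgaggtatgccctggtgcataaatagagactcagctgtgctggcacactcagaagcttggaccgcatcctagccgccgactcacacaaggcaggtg
AGR3: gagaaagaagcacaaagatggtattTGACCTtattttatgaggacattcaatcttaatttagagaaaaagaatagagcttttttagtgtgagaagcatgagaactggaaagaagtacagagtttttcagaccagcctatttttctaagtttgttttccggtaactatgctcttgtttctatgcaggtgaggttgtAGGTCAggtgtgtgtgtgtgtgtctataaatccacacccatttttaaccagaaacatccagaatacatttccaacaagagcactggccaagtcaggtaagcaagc
The AGR2 motif begins at position -119 relative to the start, and the AGR3 half-sites at -225 and -55. Both genes lie on chromosome 7. The gap between their log2 differences was smaller than the SD of 0.48 between the differences of paired features of the same gene. AGR3 lay at the 16th percentile of the 500 named genes nearest to it in mean signal. The values therefore do not set the paralogues apart, and a link between the motifs and the values was not tested.

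Growth factor and cytokine signalling genes held the only gene called higher. Of 7 measured, 5 had a positive difference and the median log2 difference was 0.44. CISH, an inhibitor of cytokine receptor signalling that STAT5 induces, had an intensity of 1163 in the shTRPS1 array and 504 in the NC array. It was 2.31-fold higher in shTRPS1 (log2 difference 1.21) with both arrays above background, and lay at the 99.6th percentile of the 500 named genes nearest to it in mean signal, whose central 95% ran from -0.88 to 0.94. The NC value of CISH was within reach of the background level of 397, as were those of ESR1 and PGR. The size of its fold is therefore uncertain. PRLR, the prolactin receptor, which signals through STAT5, had 2017 in shTRPS1 and 1492 in NC and was 1.35-fold higher. PRLR lay at the 82.8th percentile of the 500 named genes nearest to it in mean signal, inside their central 95% of -0.77 to 0.98. Only CISH was past 2-fold, and a link between the 2 genes was not tested.

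The insulin-like growth factor binding proteins were among the brightest genes. IGFBP4 had 25413 in the shTRPS1 array and 24457 in the NC array, a log2 difference of 0.06. IGFBP5 had 11393 in shTRPS1 and 6720 in NC, 1.70-fold higher in shTRPS1; among the 500 genes nearest in mean signal its difference ranked at the 97.8th percentile. The 2 binding proteins thus differed, IGFBP5 being higher and IGFBP4 nearly level. IRS1, the adaptor of the insulin and insulin-like growth factor receptors, had 174 in shTRPS1 and 215 in NC, both below background. RET, a receptor tyrosine kinase, had 348 in shTRPS1 and 208 in NC, and only the shTRPS1 value exceeded its background, so no fold is given. DEPTOR, an inhibitor of mTOR, had 410 in shTRPS1 and 440 in NC.

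The CISH promoter is shown because CISH was the gene called higher and because STAT motifs are known from it. The window, at chr3:50611725-50612024 on the minus strand (RefSeq, GRCh38.p14), holds 4 matches of TTCNNNGAA, the STAT motif, marked in capitals, which begin at positions -241, -230, -129 and -112.
CISH: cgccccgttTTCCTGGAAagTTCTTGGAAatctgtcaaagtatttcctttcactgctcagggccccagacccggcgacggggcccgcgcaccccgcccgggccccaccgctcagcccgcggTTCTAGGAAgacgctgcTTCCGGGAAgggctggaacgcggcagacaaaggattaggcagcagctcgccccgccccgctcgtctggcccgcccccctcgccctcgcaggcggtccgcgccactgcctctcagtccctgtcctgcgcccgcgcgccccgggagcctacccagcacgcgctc
Of 27305 named promoters of the same length, 6 held 4 or more matches of this motif, or 0.022%, with CISH counted among them. The promoter was chosen after the values of CISH were seen and because STAT motifs were known from it. Its place in this small share was thus set by the choice. A match is a description of the letters, not of binding, and a link between the motifs and the values was not tested.

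Transcription and chromatin genes were on the higher side. Of 7 measured, 6 had a positive difference and 2 were at least 1.5-fold higher, with a median log2 difference of 0.21. XBP1, a transcription factor of the secretory and unfolded protein programmes, had an intensity of 10550 in the shTRPS1 array and 6332 in the NC array, 1.67-fold higher in shTRPS1. GREB1, a cofactor bound to ESR1 on chromatin and a widely used readout of the receptor, had 3 features. They read 5424, 934 and 248 in shTRPS1 and 3447, 625 and 123 in NC. All 3 features of GREB1 were higher in shTRPS1, the brightest by 1.57-fold and the next by 1.49-fold, while the dimmest was below background on both arrays.

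RBBP8, a DNA end resection factor, also had 2 features, and they disagreed in size. Its brighter feature had 1170 in the shTRPS1 array and 817 in the NC array, 1.43-fold higher, and the other had 843 in shTRPS1 and 810 in NC, 1.04-fold higher. CXXC5, a zinc finger protein, was level at 3128 in shTRPS1 and 3093 in NC. NRIP1, a corepressor recruited by the liganded receptor, had 276 in shTRPS1 and 312 in NC, both below background. MYB, a proto-oncogenic transcription factor, had 92.9 in shTRPS1 and 80.2 in NC and was likewise below background. FHL2, a LIM-domain cofactor, had 368 in shTRPS1 and 337 in NC, of which only the shTRPS1 value exceeded background.

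As a measure of error within the arrays, 519 genes had at least 2 features above background on at least 1 array. The log2 difference of such a feature had an SD of 0.34 about its gene, and Pearson's r between the 2 brightest features' differences was 0.486, taken across genes, which are not independent replicates. This spread covers probe differences between features of a gene on the same arrays, not the spread between cultures.

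**Figure D2:**
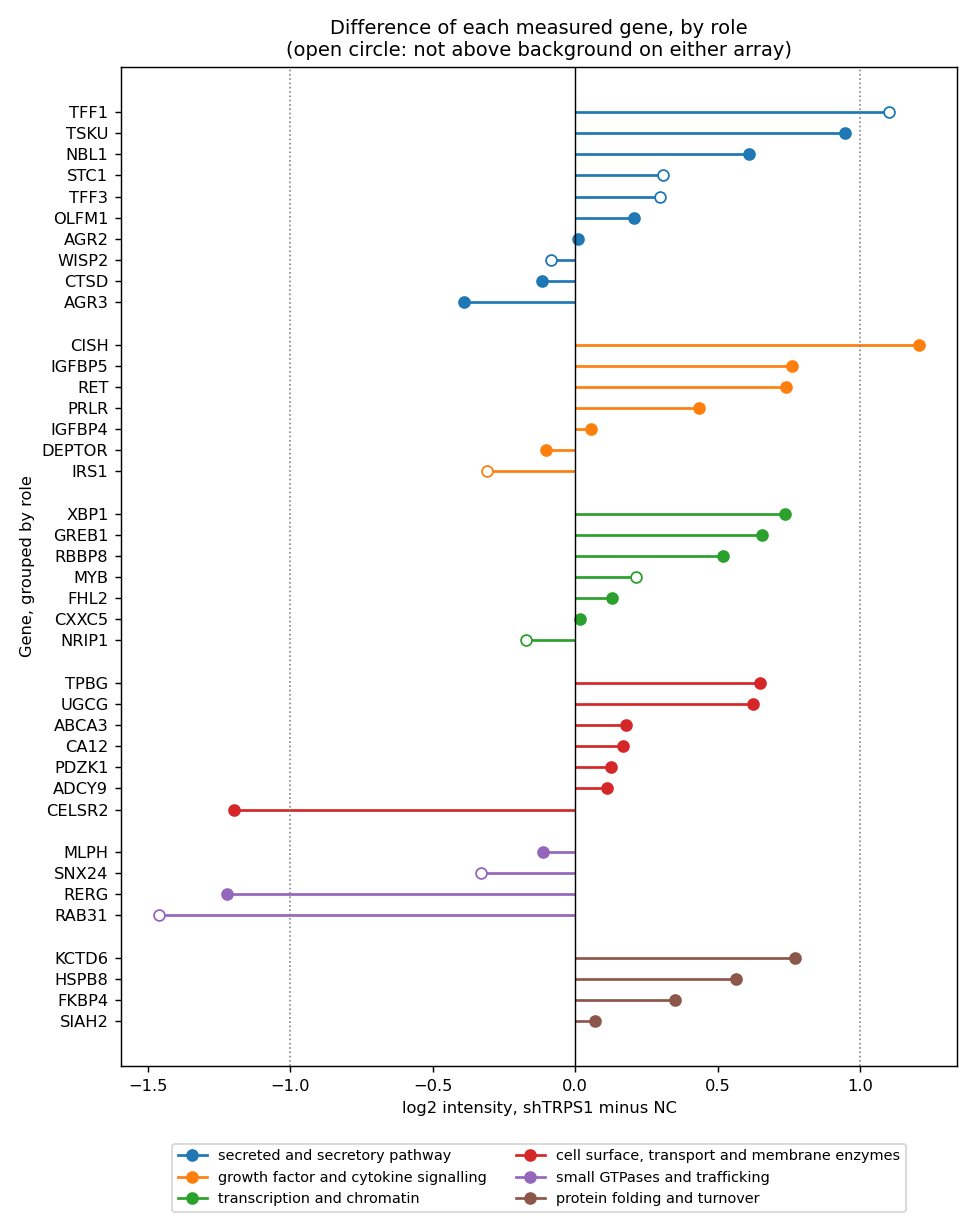
Log2 intensity difference, shTRPS1 minus NC, of each measured gene, grouped by role; filled circles were above background on at least 1 array, open circles on neither, and dotted lines mark 2-fold. CISH reaches 1.21 and CELSR2 -1.20; RERG also lies past the line but was below background in shTRPS1, and TFF1 and RAB31 are open circles whose differences cannot be read as a change.

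The surface, transport and membrane enzyme genes held 1 of the genes called lower. Of 7 measured, 6 had a positive difference, with a median log2 difference of 0.17. CELSR2, an atypical cadherin of planar cell polarity, had an intensity of 722 in the shTRPS1 array and 1657 in the NC array. It was 2.29-fold lower in shTRPS1 (log2 difference -1.20) with both arrays above background, and lay at the 0.6th percentile of the 500 named genes nearest to it in mean signal. TPBG, an oncofetal trophoblast glycoprotein, had 1877 in shTRPS1 and 1196 in NC and was 1.57-fold higher. UGCG, which makes glucosylceramide, had 1607 in shTRPS1 and 1042 in NC and was 1.54-fold higher.

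The other members of this group differed little. CA12, a carbonic anhydrase of the cell surface and a direct target of ESR1, had 9313 in the shTRPS1 array and 8289 in the NC array, and PDZK1, a scaffold of membrane transporters, had 6878 in shTRPS1 and 6306 in NC. ABCA3, a lipid transporter, had 977 in shTRPS1 and 863 in NC. These 3 were higher in shTRPS1 by 1.09-fold to 1.13-fold, differences smaller than the SD between features of a gene. ADCY9, an adenylate cyclase, had 331 in shTRPS1 and 307 in NC, of which only the shTRPS1 value exceeded background.

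The TPBG promoter is shown as the one window among those of the genes at least 1.5-fold apart that holds the oestrogen half-site. It lies at chr6:82362733-82363032 on the plus strand (RefSeq, GRCh38.p14), and capitals mark TTCNNNGAA at -231 and AGGTCA at -21.
TPBG: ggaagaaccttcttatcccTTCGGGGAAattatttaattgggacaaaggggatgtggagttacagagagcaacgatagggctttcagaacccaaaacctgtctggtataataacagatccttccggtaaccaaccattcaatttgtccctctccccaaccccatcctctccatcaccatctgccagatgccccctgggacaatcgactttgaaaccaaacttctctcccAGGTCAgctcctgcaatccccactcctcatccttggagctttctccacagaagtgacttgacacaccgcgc
Of the 39 measured genes 30 had a promoter in the RefSeq table, and the motifs were searched on both strands. TFF1, TFF3, GREB1, RERG, ADCY9, DEPTOR, FKBP4, STC1 and WISP2 had none there and were not searched. The core of the full element, GGTCA and TGACC with any 3 bases between them, was in 0 of the 30 windows, beside 0.0659% of 27305 named promoters. AGGTCA was in 3 of the 30 (10%, beside 13.9%), namely AGR3, PDZK1 and TPBG. The GATA-type motif was also in 3 (10%, beside 10.5%), namely AGR2, FHL2 and CXXC5, and TTCNNNGAA was in 4 (13.3%, beside 7.88%), namely CISH, FHL2, RBBP8 and TPBG. No letters of a full element are in these windows, which says nothing about sites farther away. The 27305 named promoters were not limited to genes measured on the arrays.

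The small GTPase and trafficking genes were all on the lower side. The 4 measured genes had negative differences, with a median log2 difference of -0.78. RERG, a Ras-like GTPase that restrains growth, had an intensity of 272 in the shTRPS1 array and 636 in the NC array. Its shTRPS1 value was below background, so it was at least 1.95-fold lower in shTRPS1. RAB31, a GTPase of endosomal transport, had 118 in shTRPS1 and 326 in NC, below background on both arrays, and SNX24, a sorting nexin, had 231 in shTRPS1 and 291 in NC, also below on both. MLPH, an adaptor of melanosome and vesicle transport, was bright, with 4705 in shTRPS1 and 5094 in NC, 1.08-fold lower. Only RERG and MLPH therefore give a reading in this group, and they differ in size.

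The protein folding and turnover genes were all on the higher side, with a median log2 difference of 0.46 over 4 genes. FKBP4, an immunophilin that assists steroid receptors with the chaperone HSP90, had an intensity of 23536 in the shTRPS1 array and 18454 in the NC array, 1.28-fold higher. HSPB8, a small heat shock protein, had 1709 in shTRPS1 and 1156 in NC, 1.48-fold higher. SIAH2, a ubiquitin ligase induced by oestrogen, was nearly level, at 2099 in shTRPS1 and 2000 in NC. KCTD6, an adaptor of cullin ubiquitin ligases, had 464 in shTRPS1 and 272 in NC, and since the NC value was below background it was at least 1.17-fold higher. No gene of this group reached 2-fold.

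**Figure D3:**
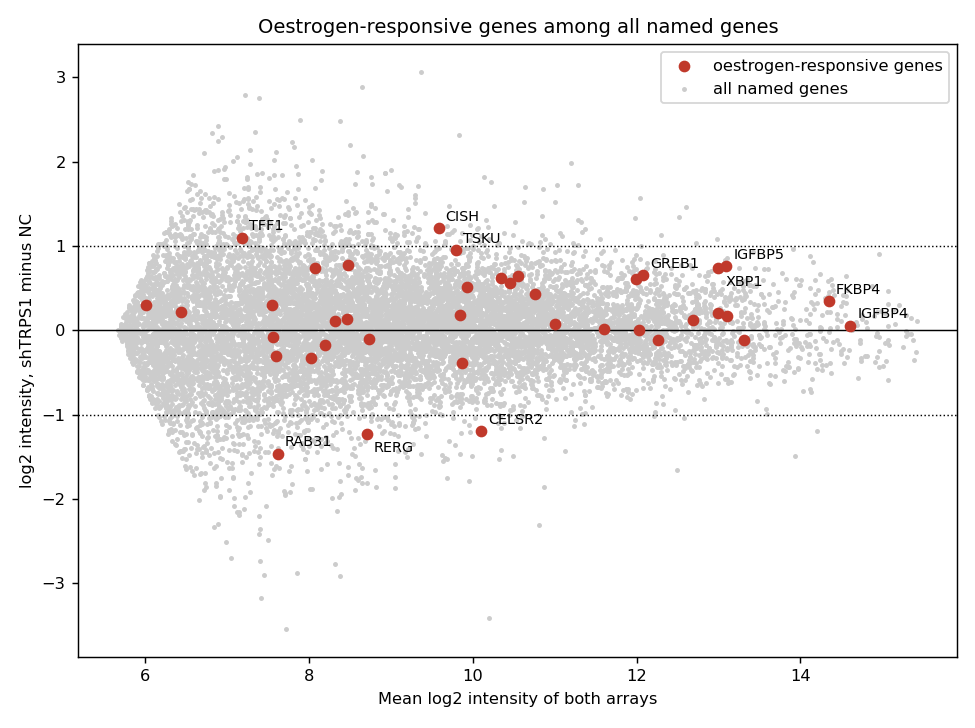
Log2 intensity difference, shTRPS1 minus NC, against mean log2 intensity for the oestrogen-responsive genes (large points) and all 11564 named genes (small grey points); dotted lines mark 2-fold. CISH, CELSR2, RERG, RAB31 and TFF1 lie past the 2-fold lines, and RAB31 and TFF1 were below background on both arrays. Most of the other genes lie inside the cloud, and the cloud narrows as the signal grows.

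Set against genes of like signal, 5 of the 39 genes lay outside the central 95%, or 12.8%, where the range leaves out 5% of genes by construction. These were CISH and IGFBP5 on the higher side and CELSR2, RERG and RAB31 on the lower. RAB31 was below background on both arrays and RERG on the shTRPS1 array, so the places of these 2 genes rest on dim values. XBP1 and TSKU lay just inside, at the 97.0th and 97.2th percentile.

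Other genes of the pathway did not share one direction. Of 29 listed receptors, pioneer factors and coregulators 26 were measured, 20 had a positive difference and the median log2 difference was 0.14, with none called higher or lower at 2-fold. NCOA3, a steroid receptor coactivator, had 558 in the shTRPS1 array and 770 in the NC array. This list, which holds ESR1 and PGR beside the receptor's partners, and the oestrogen-responsive genes thus had medians of 0.14 and 0.18.

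Of 48 other listed oestrogen-induced genes 40 were measured, and 15 of them, or 37.5%, had a positive difference, with a median log2 difference of -0.07. PGR is in this list and in that of the receptors, so it counts in both medians. In this list 2 genes were called higher and 2 lower (beside 2.27% and 1.43% of all named genes). KRT13, a mucosal keratin, had 3243 in the shTRPS1 array and 10259 in the NC array and was 3.16-fold lower in shTRPS1; keratin transcripts are similar, so its feature may detect others. MAPT, the microtubule protein tau, had 362 in shTRPS1 and 958 in NC, 2.64-fold lower. SCUBE2, a secreted glycoprotein that releases Hedgehog ligands, had 1388 in shTRPS1 and 501 in NC, 2.77-fold higher. The MAPT value in shTRPS1 and the SCUBE2 value in NC were within reach of the background levels. The sizes of both folds are therefore uncertain. FOS, an immediate early transcription factor, had 478 in shTRPS1 and 106 in NC, which is below background, so it was at least 1.21-fold higher.

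The growth regulators of this list also differed in direction. MYC, a transcription factor that drives growth, had 7762 in the shTRPS1 array and 4546 in the NC array, 1.71-fold higher. CCND1, a D-type cyclin, had 3971 in shTRPS1 and 4176 in NC, and BCL2, the survival protein, had 524 in shTRPS1 and 713 in NC. MYC was the only one of these 3 that was at least 1.5-fold apart.

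Of 12 listed oestrogen-repressed genes 11 were measured, 6 had a positive difference and the median log2 difference was 0.18. PSCA, a surface antigen, was the only one called (1 of 11 called lower, beside 1.43% of all named genes). It had 319 in the shTRPS1 array and 730 in the NC array. Its shTRPS1 value was below background, so it was at least 2.24-fold lower. ERBB2, the receptor tyrosine kinase, had 1206 in shTRPS1 and 1622 in NC, and BCL6, a transcriptional repressor, had 506 in shTRPS1 and 741 in NC. YPEL3 and EFNA1 went the other way. YPEL3 had 1372 in shTRPS1 and 1214 in NC, and EFNA1 had 1297 in shTRPS1 and 1129 in NC. Over the 4 genes of this list with both arrays above background the median was -0.13, so its direction depends on dim genes.

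**Figure D4:**
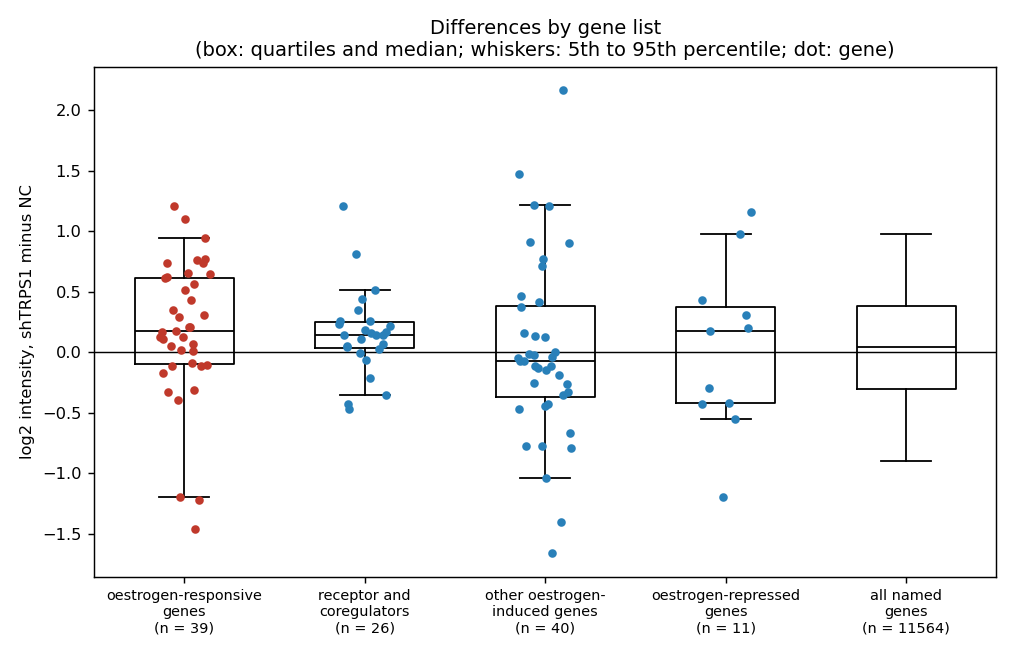
Log2 intensity difference, shTRPS1 minus NC, by gene list, with all named genes at the right; boxes give quartiles and median, whiskers the 5th to 95th percentile, and dots single genes. The medians are 0.18 for the oestrogen-responsive genes, 0.14 for receptors and coregulators, -0.07 for the other oestrogen-induced genes, 0.18 for the oestrogen-repressed genes and 0.05 for all named genes.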

How the data were processed

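Total RNA of 2 T47D cultures was converted to cDNA, labelled with Cy3 and hybridised to NimbleGen whole human genome arrays, per the labels' protocols. The values used are the intensities deposited by the authors, on a linear scale; the submitters' processing notes name RMA, while its steps and version and the genome build of the design stay unstated there. No intensity was under 50 on either array. Log2 was taken here. A second table has 8 sample columns with template names; these were left out, and the table served only for its 18881 feature names. Of 28973 features 12598 were named, all through RefSeq accessions (GRCh38.p14), and 16375 were not and entered no count.

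With 1 array a group, differences (shTRPS1 minus NC) were described and not tested, against background levels from olfactory receptor features. Where 1 array was below background, the fold is a bound against that array's level. The members, lists and motifs were chosen with earlier results of these data known; the values printed follow a rule that takes the called genes, the brightest and the farthest apart, while others are named for their role. Some genes that entered the lists are not reported here by name. The number of arrays limits the precision. Alternatives were other scalings, features, filters and thresholds. The calling rule was run on simulated data with planted differences and less noise than the spread between features of a gene here. That run checks the computation only and does not measure the error of the calls. Python 3.11.15, numpy 2.4.6, pandas 2.3.3, statsmodels 0.14.6 and matplotlib 3.10.9 were used.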

Additional observations from a re-analysis of the deposited data

How the results depend on the processing

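The signs of the 17 members recomputed singly were kept after median scaling, quantile normalization, lowess correction (span 0.4), averaging of features and taking the feature of median difference. Under these 5 settings CISH stayed the only gene called higher and the count called lower stayed at 2; the genes at least 1.5-fold higher numbered 7 to 10. The count called higher was 2 with no filter on dim features, 10 at a 1.5-fold threshold and 0 at 3-fold. The count called lower was 3 with no filter on dim features, 3 with background at the 90th percentile and 0 at 3-fold. With both arrays above background 1 gene was called lower, 1 was at least 1.5-fold lower, and the median of the oestrogen-repressed genes was -0.13 over 4 genes. Over the 8 members with features in the second table, the median log2 difference was 0.51, 6 were positive, 3 were at least 1.5-fold higher, 1 was at least 1.5-fold lower and 1 was called lower. There the other oestrogen-induced genes had a median of -0.34 and the oestrogen-repressed genes 0.28. Fewer genes enter these last settings; otherwise the cause was not tested. The 1.5-fold threshold was planned, while recomputing its counts under the other settings was chosen after seeing the data. No paired analysis was possible because each group had 1 array.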

Other observations

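Across the 39 measured oestrogen-responsive genes Pearson's r between the log2 difference and the log2 signal on the NC array was 0.02; the genes share both arrays and are not independent replicates. The windows around the first listed starts of 30 of these genes had a median GC content of 69.5%, with a range of 38.0% to 82.7%, beside 58.3% over 27305 named promoters. Those promoters were not limited to genes measured on the arrays. Whether the gap is particular to the listed genes was not tested.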
